A study of Mus musculus with 13 samples.

Results

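The 7 genes Csf3, Csf3r, Il1b, Ltf, S100a8, S100a9 and Trem1 were taken by symbol from a table of 24421 genes that was counted in 13 RNA-seq libraries of mouse mammary gland and mammary tumor, and all 7 were found. All animals were female FVB/N mice of the MMTV-HER2/neu line, 202Mul/J, in which the MMTV promoter drives a HER2/Neu transgene in breast epithelium; the strain label was the same for the gland donors, and the genotype label read wild type throughout. The groups were mammary gland from untreated, cancer-free animals (n = 2), primary untreated tumors (n = 3), primary stavudine tumors (n = 3) from mice given the nucleoside reverse transcriptase inhibitor stavudine at 1 mg/mL in the drinking water, begun early in life or once a tumor was seen, recurrent 17-DMAG tumors (n = 3) that regrew after the HSP90 inhibitor 17-DMAG, injected at 20 mg/kg, had cleared the first tumor, and recurrent 17-DMAG plus stavudine tumors (n = 2), whose hosts received both agents; the last group is called the combination recurrences. In both recurrent groups the injections did not stop when the first tumor cleared. They went on until the mouse was killed with a regrown tumor at the size limit. The primary tumors came from mice that were not injected. Comparisons of recurrent with primary tumors therefore also set tumors under this drug against tumors without it. The separate parts of recurrence and of drug exposure at collection were not tested. The ages at collection were not given in the sources used here. Libraries held 39921388 to 56887708 counts, and levels are given as CPM (counts of a gene relative to the library total) after TMM scaling; the scaling factor was 0.493 in gland replicate 2 and 0.999 to 1.12 in the other 12 libraries. A count of 3, taken as the limit below which a level was not read, corresponded to 0.0587 to 0.107 CPM.

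Neutrophils are short-lived granulocytes that leave the bone marrow under the control of granulocyte colony-stimulating factor (G-CSF), the product of Csf3, which signals through the receptor encoded by Csf3r. Interleukin-1β, the product of Il1b, is made largely by myeloid cells and induces G-CSF and neutrophil chemokines in stromal and epithelial cells. Mature neutrophils carry abundant calprotectin, a heterodimer of the S100a8 and S100a9 products, store lactoferrin (Ltf) in secondary granules and display Trem1, a receptor that amplifies inflammatory signals through the adaptor Tyrobp; Ltf is also a milk protein gene of the secretory mammary epithelium, and S100a8, S100a9 and Il1b are also used by monocytes and macrophages.

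At the level of the whole tissue the 7 transcripts were scarce, with the exception of Ltf. Per kilobase of exon, the mean level over the 11 tumors was 40.6 CPM per kb for Ltf, 1.31 for Il1b, 1.18 for S100a8, 1.05 for Csf3r, 0.492 for S100a9, 0.117 for Csf3 and 0.0634 for Trem1. Csf3 stood at or under 3 counts in 6 of the 11 tumors and Trem1 in 6, S100a8 and S100a9 each in 2, and Csf3r, Il1b and Ltf in none. In bulk tissue, fewer cells of a type and less RNA per cell cannot be told apart. The plot of levels by library shows all 7 genes.

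**Figure D1:**
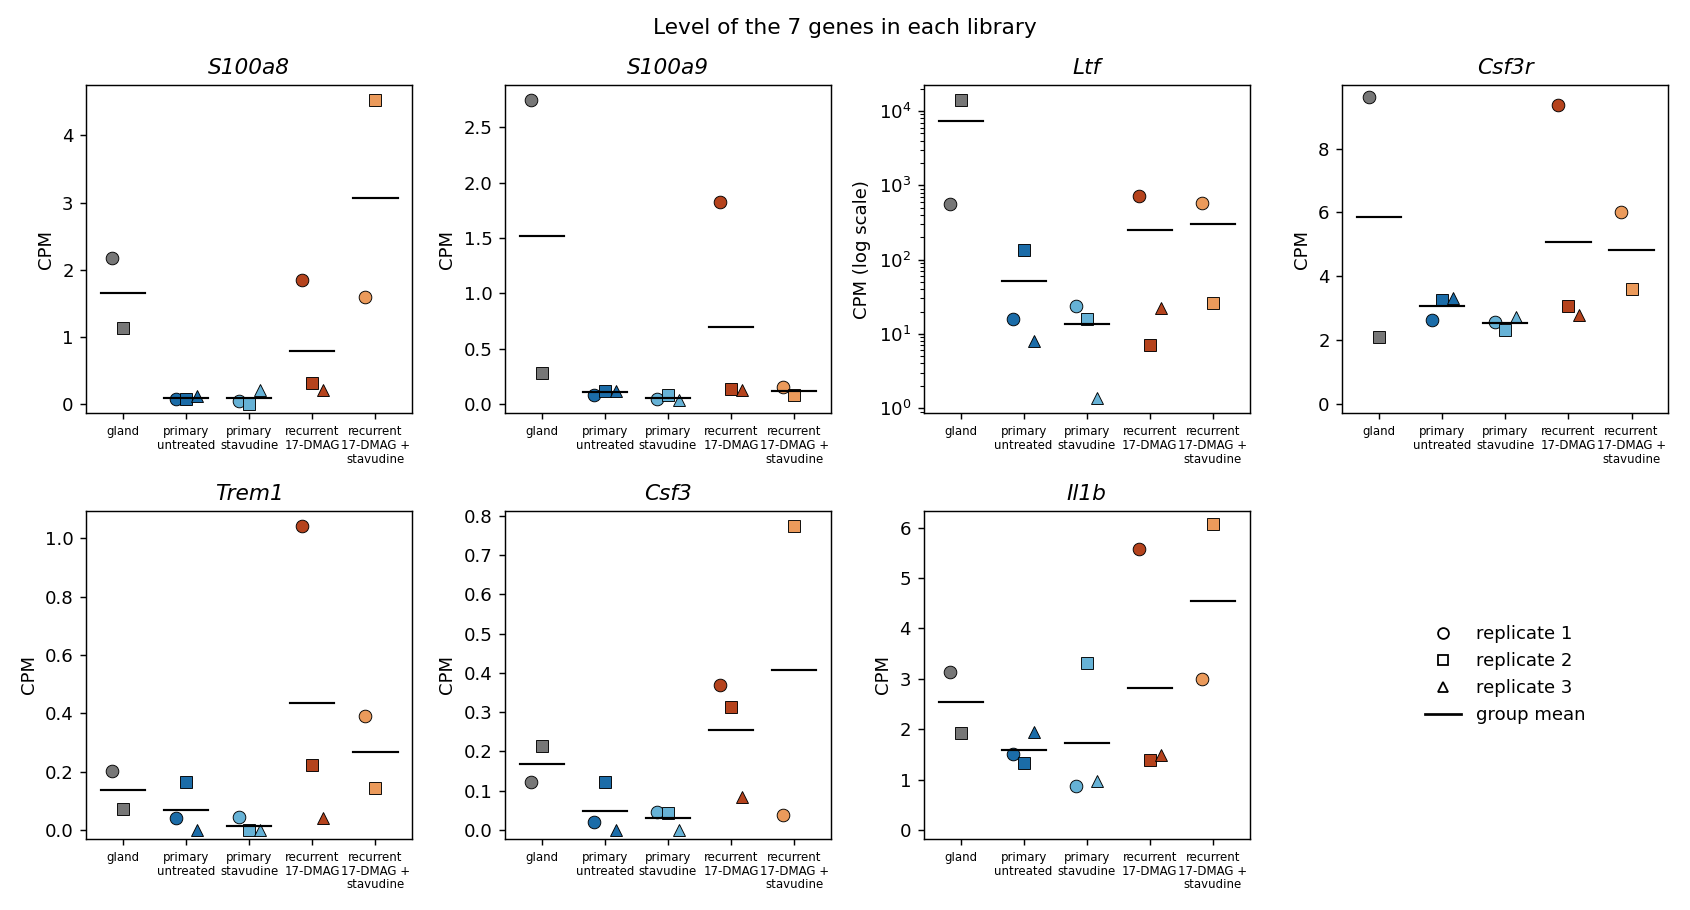
Level of each gene in each of the 13 libraries, in CPM (linear axis, log axis for Ltf), by group; symbols mark the replicate and lines the group mean. S100a8 was highest in recurrent 17-DMAG plus stavudine replicate 2 (4.53 CPM), S100a9 in gland replicate 1 (2.75 CPM), and recurrent 17-DMAG replicate 1 had the highest level among the tumors for S100a9, Ltf, Csf3r and Trem1.

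S100a8 and S100a9 are neighbours on chromosome 3 in mouse build GRCm38, S100a8 at chr3:90668978-90670035 on the plus strand and S100a9 at chr3:90692632-90695721 on the minus strand. The 250 bases before each gene start in RefSeq (GRCm38.p6) are shown because these genes, often described together, did not keep the same ratio across the libraries. Capitals mark matches on either strand to the core sequences of transcription factors of the granulocyte lineage, TT, any 2 bases, G, any base and AA for C/EBP factors and GAGGAA for PU.1.
S100a8: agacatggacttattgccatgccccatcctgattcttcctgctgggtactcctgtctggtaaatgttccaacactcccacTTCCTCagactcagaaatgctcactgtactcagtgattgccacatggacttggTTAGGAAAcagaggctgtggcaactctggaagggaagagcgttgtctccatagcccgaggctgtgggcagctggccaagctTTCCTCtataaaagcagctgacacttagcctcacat
S100a9: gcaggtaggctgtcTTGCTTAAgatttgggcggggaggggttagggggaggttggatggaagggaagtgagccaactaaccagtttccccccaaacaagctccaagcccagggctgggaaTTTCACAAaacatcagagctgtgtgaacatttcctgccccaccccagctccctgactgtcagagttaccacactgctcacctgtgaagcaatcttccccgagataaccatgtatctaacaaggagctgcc
The S100a8 window, chr3:90668821-90669070, held 1 C/EBP match and 2 PU.1 matches, and the S100a9 window, chr3:90695722-90695971, held 2 C/EBP matches and 0 PU.1 matches. The S100a8 position above is from GENCODE, which starts the gene before the RefSeq start, so the end of this window lies inside it. The PU.1 match 36 bases before the RefSeq start falls in that stretch. Of 32851 mouse promoter windows of the same length, 36.8% held a C/EBP match and 23.3% a PU.1 match, so these letters are common. Neither window held the AP-1 core TGANTCA, found in 6.75% of windows, or an NF-kB core, found in 45.8%. A match describes the letters of the window and is not a binding site.

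For S100a8, the levels of recurrent and primary tumors met at a single value. The primary untreated tumors had 0.0796, 0.0815 and 0.120 CPM, from 4, 4 and 6 counts, and the primary stavudine tumors 0.0460, 0 and 0.211 CPM, from 2, 0 and 10 counts. The 17-DMAG recurrences had 1.85, 0.313 and 0.210 CPM, from 80, 14 and 10 counts, and the combination recurrences 1.603 and 4.53 CPM, from 82 and 222 counts. All 5 recurrent tumors lay above the primary untreated tumors, while the lowest recurrent tumor and the highest primary stavudine tumor were level at 10 counts each. The glands, at 2.18 and 1.14 CPM, fell within the range of the recurrent tumors.

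S100a9 had another pattern. Its level was 0.0796, 0.122 and 0.120 CPM in the primary untreated tumors and 0.0460, 0.0870 and 0.0422 CPM in the primary stavudine tumors. It was 1.83, 0.134 and 0.126 CPM in the 17-DMAG recurrences and 0.156 and 0.0815 CPM in the combination recurrences. Recurrent 17-DMAG replicate 1 thus stood alone among the 11 tumors, with 79 counts against 2 to 8 in the other 10. The glands differed from each other, at 2.75 and 0.285 CPM.

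The share of S100a8 in the summed counts of both genes therefore varied between libraries. It was 50.3% in recurrent 17-DMAG replicate 1 (95% exact Clopper-Pearson interval 42.3 to 58.3) and 44.3% in gland replicate 1 (37.9 to 50.7). In the combination recurrences it was 91.1% (83.2 to 96.1) in replicate 1 and 98.2% (95.5 to 99.5) in replicate 2, and in gland replicate 2 it was 80.0% (64.4 to 90.9). The combination recurrences thus had 82 and 222 counts of S100a8 with 8 and 4 of S100a9, where recurrent 17-DMAG replicate 1 had 80 with 79. In the other 8 tumors the share rested on at most 20 counts. The intervals cover counting error only, are too narrow if low counts come in steps of 2, and compare libraries, not conditions.

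**Figure D2:**
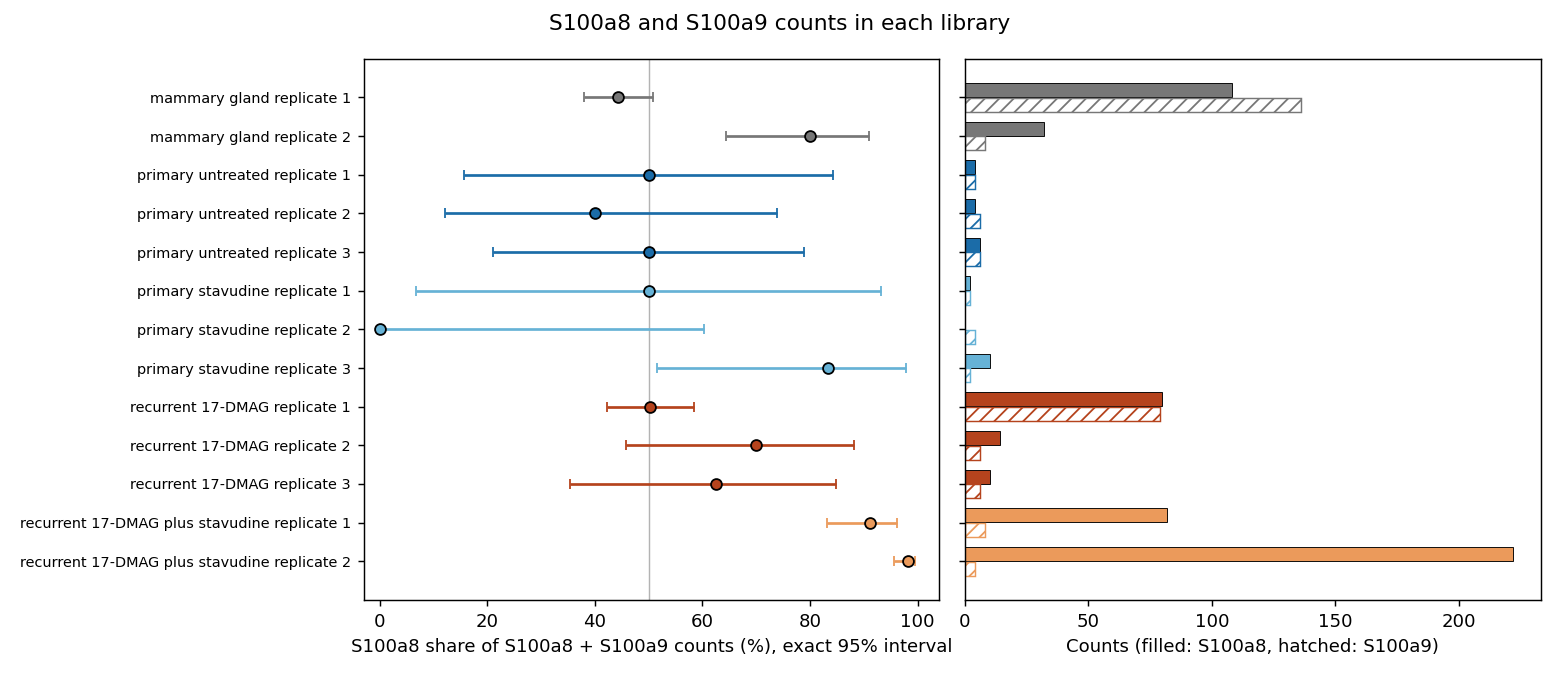
Left, share of S100a8 in the summed S100a8 and S100a9 counts of each library, in percent, with its exact 95% interval; right, the counts of S100a8 (filled) and S100a9 (hatched). The combination recurrences lie at 91.1% and 98.2%, and the libraries with many S100a9 counts, gland replicate 1 and recurrent 17-DMAG replicate 1, at 44.3% and 50.3%.

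Ltf, at chr9:111019271-111042767 on the plus strand, had the widest range of the 7 genes. Its level was 554 and 14165 CPM in the glands, 15.9, 133 and 8.06 CPM in the primary untreated tumors and 24.1, 15.7 and 1.35 CPM in the primary stavudine tumors. The 17-DMAG recurrences had 713, 7.08 and 22.5 CPM and the combination recurrences 576 and 26.1 CPM. A single tumor in each recurrent group was thus at the level of gland replicate 1, and the other 3 recurrent tumors lay within the range of the primary tumors. Over the 11 tumors, the gene whose centred log2 level was nearest to that of Ltf among 13927 genes with a mean of at least 1 CPM was Csn2, which encodes β-casein (root mean square difference 0.74, against an SD of 2.71 for Ltf itself), followed by Lrrc15 (1.24) and the casein gene Csn1s2a (1.26). The ratio of Ltf to Csn2 counts stayed between 0.0595 and 0.281 in the 13 libraries, a span of 4.72-fold, while the level of Ltf itself spanned 10496-fold. This ratio was 0.0595 to 0.145 in the primary tumors and 0.128 to 0.281 in the recurrent tumors, a difference that was not tested.

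The window before the RefSeq start of Ltf, chr9:111019042-111019291, is shown because the pattern of this granule gene was nearest to that of a milk protein gene. This window ends past the GENCODE start of the gene, which was given above. It held 2 C/EBP matches, 1 PU.1 match and 3 overlapping matches to an NF-kB core, which was read as GGG and CC around any 5 bases; capitals mark them.
Ltf: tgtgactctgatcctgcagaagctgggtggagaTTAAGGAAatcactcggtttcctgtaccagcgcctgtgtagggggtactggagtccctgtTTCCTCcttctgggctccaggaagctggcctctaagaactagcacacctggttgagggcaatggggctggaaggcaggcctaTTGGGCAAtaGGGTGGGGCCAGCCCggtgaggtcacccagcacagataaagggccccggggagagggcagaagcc

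Csf3r, at chr4:126024550-126044440 on the plus strand, varied least among the tumors. The primary untreated tumors had 2.63, 3.26 and 3.31 CPM, the primary stavudine tumors 2.56, 2.31 and 2.74 CPM, the 17-DMAG recurrences 9.35, 3.06 and 2.79 CPM, and the combination recurrences 6.02 and 3.61 CPM. The glands had 9.61 and 2.11 CPM, above and below all 11 tumors. The 3 genes nearest to Csf3r over the 11 tumors were Plek (root mean square difference 0.14 against an SD of 0.60), which encodes the leukocyte and platelet protein pleckstrin, and Tlr8 (0.15) and Tlr13 (0.16), endosomal receptors for RNA in myeloid cells. The ratio of Csf3r to Plek counts lay between 0.202 and 0.271 in the 11 tumors, and the level of Csf3r spanned 4.06-fold. These likenesses share libraries and their depth and were given no test.

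**Figure D3:**
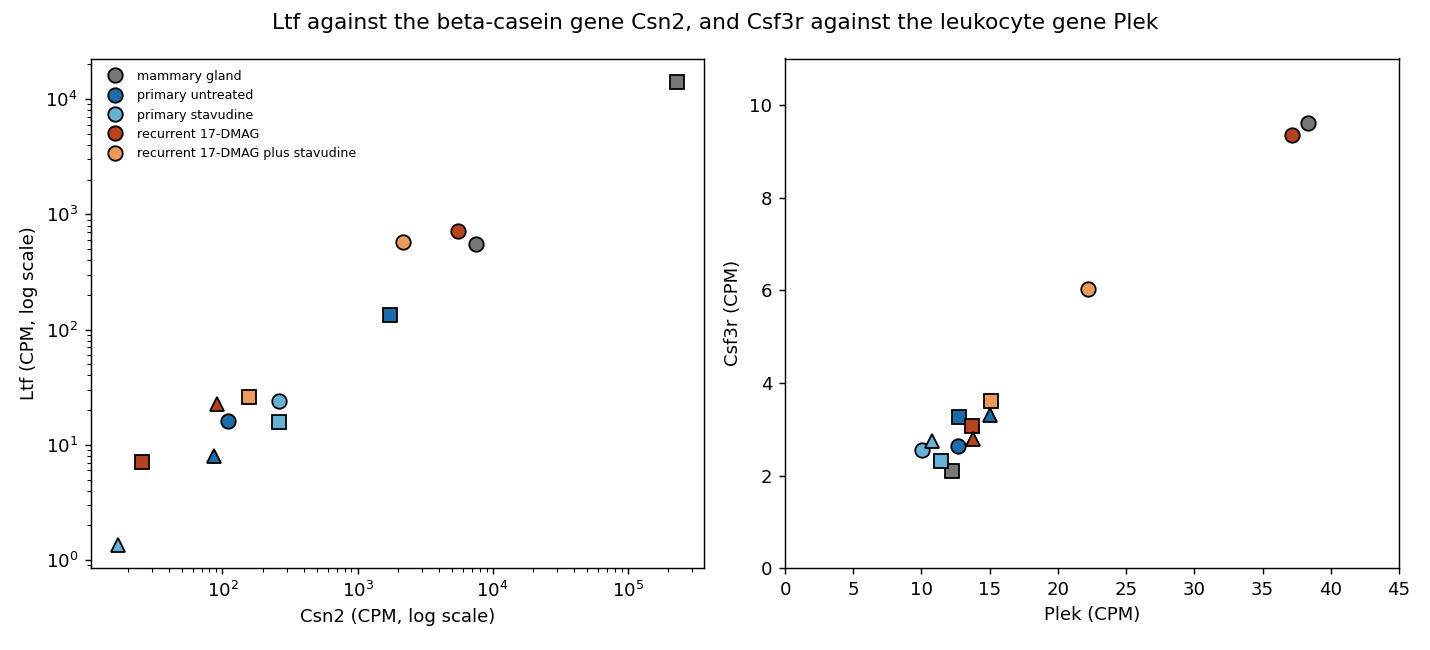
Left, Ltf against the β-casein gene Csn2 on log axes, and right, Csf3r against Plek on linear axes, both in CPM, with 1 point for each of the 13 libraries coloured by group (circle, square and triangle for replicates 1, 2 and 3). Ltf and Csn2 are both highest in gland replicate 2 and both lowest in primary stavudine replicate 3; Csf3r and Plek are both highest in gland replicate 1 and recurrent 17-DMAG replicate 1.

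Trem1, at chr17:48232768-48246924 on the plus strand, was near the limit of reading. Primary untreated tumors held 2, 8 and 0 counts, primary stavudine tumors 2, 0 and 0, with 45, 10 and 2 in the 17-DMAG recurrences and 20 and 7 in the combination recurrences. The glands had 10 and 2 counts. The highest level, 1.04 CPM, was that of recurrent 17-DMAG replicate 1, and a recurrent tumor of the same group was at 0.0420 CPM.

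Of the inducers, Csf3, at chr11:98701263-98703629 on the plus strand, was as scarce. It had 1, 6 and 0 counts in the primary untreated tumors, 2, 2 and 0 in the primary stavudine tumors, 16, 14 and 4 in the 17-DMAG recurrences, 2 and 38 in the combination recurrences and 6 and 6 in the glands. The highest level, 0.775 CPM, was in recurrent 17-DMAG plus stavudine replicate 2, which also had the highest S100a8 and Il1b, while replicate 1 of that group had 0.0391 CPM. Recurrent and primary tumors overlapped.

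Il1b, at chr2:129364570-129371139 on the minus strand, was detected in every library. Its level was 1.51, 1.32 and 1.94 CPM in the primary untreated tumors, 0.875, 3.31 and 0.970 CPM in the primary stavudine tumors, 5.58, 1.38 and 1.49 CPM in the 17-DMAG recurrences and 2.99 and 6.07 CPM in the combination recurrences. The glands had 3.13 and 1.93 CPM. Primary stavudine replicate 2 and recurrent 17-DMAG replicate 1 stood above the other tumors of their groups, and the 2 combination recurrences ranked 1 and 4 of 11. Il1b overlaps the antisense gene Il1bos, which had 8 to 82 counts per library, and the counting was not stated to use strand.

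Whether tumors differed from glands was tested with edgeR's quasi-likelihood test over 17135 genes. Of the 7 genes, 2 fell in tumors, against a background of 10.4% of genes called in either direction, 8.81% lower and 1.6% higher. S100a9 decreased by 3.31 on the log2 scale (SE 0.83, edgeR adjusted p = 0.0313) and Ltf decreased by 6.43 (SE 1.46, adjusted p = 0.0219), and tumors and glands overlapped for all 7 genes, where 7.37% of genes were lower in every tumor than in both glands; gland replicate 2 lay below the highest tumor for S100a9 and gland replicate 1 for Ltf. Each call rested on 1 gland: without gland replicate 1 the S100a9 difference was -0.86 (edgeR adjusted p = 0.642), and without gland replicate 2 the Ltf difference was -2.61 (adjusted p = 0.547). The S100a9 call was also lost, at adjusted p values of 0.0512 to 0.0684, when primary untreated replicate 1 or 3, primary stavudine replicate 1 or 3, or either combination recurrence was left out, and the Ltf call, at 0.0522 and 0.0649, without either of the latter. With primary untreated tumors alone set against the glands, the adjusted p was 0.103 for S100a9 and 0.114 for Ltf. S100a9 passed the filter on low counts only with the glands included, where gland replicate 1 held 136 counts and gland replicate 2 held 8. Fitted without that filter, its difference from glands was -3.30 (edgeR adjusted p = 0.0311).

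The other 5 genes did not pass. The log2 difference of tumors from glands was -2.13 for S100a8 (edgeR adjusted p = 0.114), and it passed, at -2.53 (adjusted p = 0.0310), without recurrent 17-DMAG replicate 1. It was -0.66 for Csf3r (95% interval -1.80 to 0.47), -0.55 for Csf3 (-3.01 to 1.91), -0.39 for Trem1 (-2.90 to 2.11) and -0.06 for Il1b (-1.43 to 1.32). These intervals leave room for differences of more than 2-fold in both directions for Csf3, Trem1 and Il1b.

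Differences between tumor groups were tested over 16870 genes in the 11 tumors, and 6 of the 7 genes passed the filter on low counts; S100a9 did not. By edgeR, 0 of the 6 were called in any of the comparisons, against a background of 0% of all genes called in each. At an unadjusted p under 0.05, edgeR gave 0 of 6 for stavudine in primary tumors (3.76% of all genes), 1 for recurrent 17-DMAG against primary untreated tumors (9.69%), 3 for combination recurrences against primary stavudine tumors (10.1%), 0 between the recurrent groups (7.84%), 5 for recurrent against primary tumors (13.6%), 0 for the interaction (7.84%) and 1 for any difference among the 4 groups (8.54%). S100a8 was among the genes under that limit wherever there was any. The comparisons share samples, so their values are set side by side.

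Recurrent and primary tumors, averaged over the arms with and without stavudine, gave lower unadjusted p values for each of the 6 genes than the other comparisons of tumor groups with a direction. S100a8 differed by 4.07 on the log2 scale (SE 0.85, edgeR unadjusted p = 0.000833, adjusted p = 0.287), Ltf by 3.34 (SE 1.38), Trem1 by 3.29 (SE 1.11), Csf3 by 3.01 (SE 1.01), Il1b by 1.11 (SE 0.51) and Csf3r by 0.82 (SE 0.34), with edgeR adjusted p values of 0.313 to 0.374 for the latter 5. Il1b, with an unadjusted edgeR p of 0.0551, was the gene over that limit. With DESeq2, S100a8 was called in this comparison (log2 difference 4.13, adjusted p = 0.000401). The share of all genes that DESeq2 called is not given here for any comparison, so its calls have no background to be set against. Leaving out single libraries gave 3.28 to 4.98 for S100a8, 1.32 to 4.40 for Ltf (1.32 without recurrent 17-DMAG replicate 1 and 1.59 without combination recurrence replicate 1), 2.45 to 4.68 for Trem1, 1.38 to 3.99 for Csf3 (1.38 without combination recurrence replicate 2), 0.63 to 1.55 for Il1b and 0.43 to 0.99 for Csf3r (both lowest without recurrent 17-DMAG replicate 1). Fitted without the filter, S100a9 differed by 1.82 (SE 0.78, edgeR adjusted p = 0.413).

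Within the arm without stavudine, recurrent 17-DMAG differed from primary untreated tumors by 3.03 for S100a8 (SE 1.14, edgeR adjusted p = 0.509), and these groups did not overlap, as for 7.65% of all genes in this direction. For Ltf the difference was 2.23 (SE 1.82), for Csf3r 0.71 (SE 0.45) and for Il1b 0.81 (SE 0.68), and these turned to -1.81, -0.061 and -0.14 without recurrent 17-DMAG replicate 1, so their direction was set by that tumor. Without it, the S100a8 difference was 1.46 and that of Trem1 went from 2.62 to 0.95, and without primary untreated replicate 2 that of Csf3 went from 2.35 to 4.35. In the arm with stavudine, recurrent 17-DMAG plus stavudine differed from primary stavudine tumors by 5.12 for S100a8 (SE 1.26, edgeR adjusted p = 0.313; DESeq2 adjusted p = 0.00482), and S100a8, Ltf, Csf3r and Trem1 did not overlap there, all higher in the recurrent tumors, where 17.4% of all genes did the same. Without combination recurrence replicate 1 the difference of Ltf there went from 4.45 to 0.92, and without replicate 2 that of Csf3 went from 3.67 to 0.37. Whether the arms differed was tested as an interaction, which was 2.09 for S100a8 (95% interval -1.598 to 5.78, edgeR adjusted p = 0.782) and passed for 0 of the 6 genes.

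**Figure D4:**
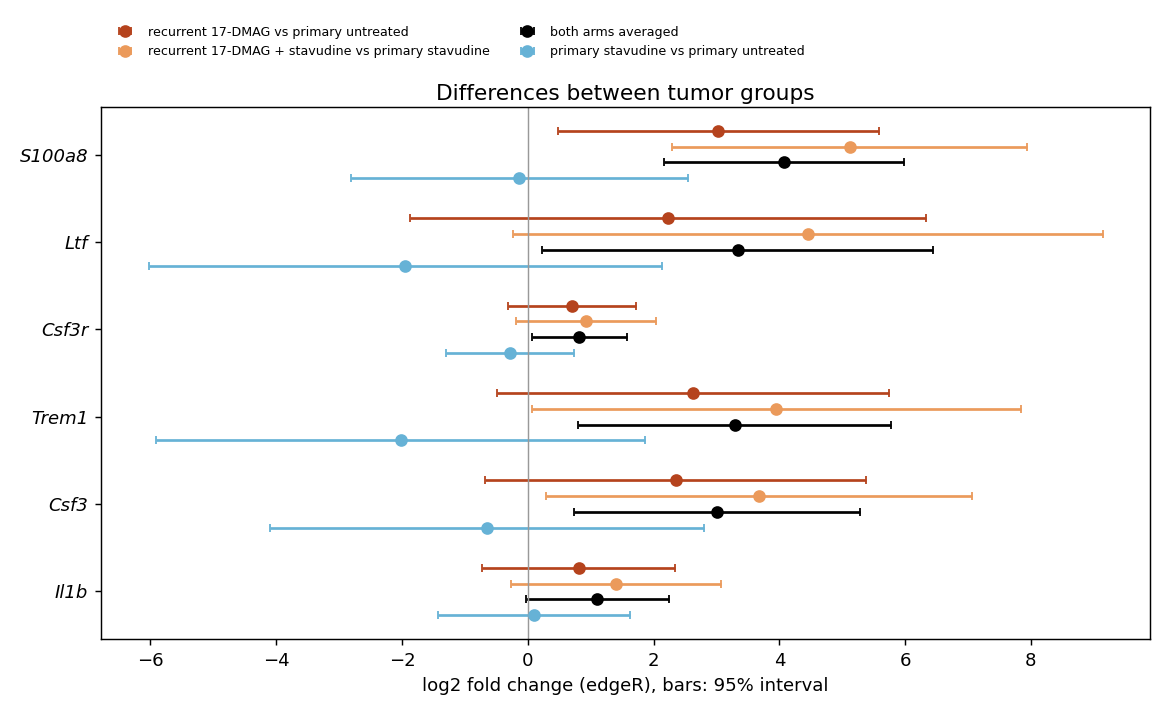
Differences between tumor groups on the log2 scale for the 6 genes tested, as edgeR estimates with 95% intervals; positive values are higher in the first-named or recurrent group. S100a8 lies at 3.03, 5.12 and 4.07 in the comparisons of recurrent with primary tumors and at -0.13 between primary stavudine and primary untreated tumors, and 0 of these passed the adjusted threshold in edgeR.

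Stavudine alone gave no call in primary tumors. The log2 difference of primary stavudine from primary untreated tumors was -0.13 for S100a8 (95% interval -2.81 to 2.55), -0.29 for Csf3r (-1.30 to 0.73), 0.10 for Il1b (-1.43 to 1.62), -0.65 for Csf3 (-4.10 to 2.81), -1.95 for Ltf (-6.03 to 2.13) and -2.02 for Trem1 (-5.91 to 1.87). Among recurrent tumors, adding stavudine gave differences of 1.96 for S100a8 (-0.51 to 4.42), 0.69 for Il1b (-0.98 to 2.36), 0.68 for Csf3 (-2.27 to 3.63), 0.28 for Ltf (-4.07 to 4.63), -0.07 for Csf3r (-1.20 to 1.06) and -0.69 for Trem1 (-3.90 to 2.51). Only for Csf3r were these intervals within about 1.3 on the log2 scale of 0; those of the other genes were wider.

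Other genes of the same programs were read from lists, to be set against 8.81% of all genes called lower in tumors than in glands and 1.6% called higher. Of 18 other neutrophil granule genes, 13 were tested and 2 fell in tumors against glands, among them the gelatinase gene Mmp9 (-2.84, edgeR adjusted p = 0.0453). Of 13 tested neutrophil surface genes 2 fell, among them the chemokine receptor gene Cxcr2 (-6.07, edgeR adjusted p = 0.0266). Cxcr2 was high in gland replicate 1, while gland replicate 2 was as low as most tumors. Of 10 attracting and growth signals 1 fell, the macrophage growth factor gene Csf1 (-1.03, edgeR adjusted p = 0.0396). In the IL-1 system 2 of 15 fell, the pore-forming Gsdmd (-1.71) and the adaptor gene Myd88 (-0.61). Among 11 genes of G-CSF signalling, Csf2 receptors and granulocyte transcription 3 fell, and Cebpb rose by 0.72 (edgeR adjusted p = 0.0146). The 3 were the Csf2 receptor genes Csf2rb (-3.07) and Csf2rb2 (-2.27) and the transcription factor gene Cebpa (-1.51). In the TREM group Syk (-2.23) and Treml2 (-3.21) fell, 2 of 6, and among receptors for S100A8/S100A9 and neighbouring S100 genes 0 of 14 were called. The most abundant genes of the remaining lists had mean levels of 121 CPM (Casp1), 259 CPM (Stat3), 13.7 CPM (Tyrobp) and 385 CPM (Bsg) over the 11 tumors, and the tests called none of these 4 between tumors and glands. Median log2 differences were -0.78 for the granule list and -1.68 for the surface list, against -0.02 for all genes.

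In recurrent against primary tumors, 0 genes of these lists were called by edgeR. The median log2 difference was 1.06 over the 13 granule genes tested, 12 of them above 0, 1.05 over 11 surface genes, 10 above 0, -0.03 over 10 attracting and growth signals, 5 above 0, and 0.20 over the 15 IL-1 genes, against 0.0018 over all genes. For the 11 genes of G-CSF signalling and granulocyte transcription it was 0.72, 10 above 0. For 6 TREM genes it was 0.61, 6 above 0, and for 14 S100 and receptor genes 0.23, 9 above 0. Among the signals, the neutrophil chemokine gene Cxcl1 had 1.00 to 1.77 CPM in the 6 primary tumors and 1.97 to 3.91 CPM in the 5 recurrent tumors, which did not overlap (log2 difference 1.04, edgeR adjusted p = 0.287), as for 0.652% of all genes in this direction. Of the 10 signals only Cxcl1 did so, and 1 of 6 TREM genes and 2 of 6 pan-leukocyte markers did the same. Socs3, a feedback inhibitor of cytokine receptors that is induced through STAT3, had a median of 2.18 CPM in primary and 7.66 CPM in recurrent tumors (2.12, adjusted p = 0.287).

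Several genes of the neutrophil lists were near 0. The granule protease genes Elane, Ctsg and the peroxidase gene Mpo had at most 4, 4 and 8 counts in any tumor, and Stfa2l1 at most 2. Another protease gene of the granule list, Prtn3, had 2 to 99 counts in the tumors. These counts were not read as a measure of neutrophil number. Cxcr2 had 48 counts in recurrent 17-DMAG replicate 1, 155 in gland replicate 1 and 0 to 8 in the other 11 libraries, and these were also the libraries with the most S100a9. Ly6g was not found by symbol among the genes counted and was therefore not analysed here. Of the neutrophil list genes, Lcn2, at 1288 to 5458 CPM in the tumors, and Cd177, at 4.81 to 99.5 CPM, were present in every library. Which cells made these transcripts was not tested. Other genes of these lists were above the limit of reading in every tumor, among them Itgam (418 to 1401 counts), Cybb (862 to 2003), Padi4 (15 to 180), Mmp9 (6 to 286) and Ngp (7 to 19), and several of these are also used by macrophages. Without Lcn2, the summed level of the granule list was 37.3 to 48.6 CPM in primary tumors, 41.0 to 102.5 CPM in recurrent tumors and 74.3 to 131 CPM in the glands.

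Macrophage markers moved with several of the 7 genes. The summed level of 10 macrophage markers was 631 CPM in recurrent 17-DMAG replicate 1, 347 and 367 CPM in the combination recurrences and 175 to 237 CPM in the other 8 tumors, so the 3 tumors with the highest S100a8 and the highest Csf3r were also those with the most macrophage transcripts. For Il1b this held for 2 of them, and primary stavudine replicate 2 came next. Of these markers 9 of 10 had a log2 difference above 0 between recurrent and primary tumors (median 0.73), and 0 were called. In the same comparison the median was 1.34 over 6 monocyte markers and 0.64 over 6 pan-leukocyte markers, all above 0 in both lists, and 2.26 over 5 mast cell markers, 5 of them above 0, with 0 called. The 6 proliferation markers were higher in every 17-DMAG recurrence than in every primary untreated tumor (median 0.53; 7.65% of all genes) and lower in both combination recurrences than in every primary stavudine tumor (median -1.17; 17.9% of all genes), with 0 called. Milk protein genes other than Csn2 summed to 4445 to 17796 CPM in the tumors and 20521 and 535121 CPM in the glands, and 6 of the 8 milk genes, Csn2 included, fell in tumors. Against glands, where 8.81% of all genes were called lower, adipocyte markers fell for 5 of 6, B and T cell markers for 5 of 6, pan-leukocyte markers for 3 of 6 (Ptprc, Cd52 and Coro1a) and monocyte markers for 2 of 6 (Ly6c2 among them), while 0 of 10 macrophage, 0 of 6 mast cell, 0 of 6 skeletal muscle, 0 of 6 proliferation and 0 of 4 squamous epithelium markers were called. The B and T cell sum was 166 CPM in gland replicate 1 and 5.25 CPM in gland replicate 2, against 2.68 to 6.41 CPM in the tumors. The pan-leukocyte sum was 840 and 357 CPM in those glands, against 253 to 804 CPM in the tumors. Gland replicate 2 thus lay within the range of the tumors for both sums. Luminal epithelium markers other than Epcam summed to 1179 to 2285 CPM in tumors and 1386 to 2071 CPM in glands, and 2 of 8, Krt19 and Elf5, fell. The part of these cell types in the differences above was not tested.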

How the data were processed

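Total RNA depleted of rRNA was made into stranded libraries. Per the labels and methods, the authors aligned reads with STAR to mm10 and counted them per gene with featureCounts (Subread 1.6.2); whether reads or fragments were counted, and on which strand, is not given in the sources used here. The deposited values are raw counts, and between 71.9% and 75.7% of counts from 1 to 20 were even, against 49.6% to 50.8% above 200, so low counts may come in steps of 2 and intervals on them are too narrow. Groups came from the sample titles. Counts were tested in R 4.3.3 with edgeR 4.0.16 (TMM, filterByExpr, robust quasi-likelihood; biological coefficient of variation 0.431 over 13 libraries and 0.402 over tumors), with Benjamini-Hochberg adjustment over all genes and a threshold of 0.05; glands against tumors in 13 libraries, the rest in 11 tumors. The titles do not say that replicates came from separate animals, so p-values measure the spread between these samples. The script was tested on simulated data. DESeq2 1.42.0, other scaling, no filter, a replicate block, left-out libraries and halved counts, the last chosen after seeing the data, were the alternatives. All 7 genes were named in every comparison; list genes were named if called, or among the highest of their list, and Socs3, Cxcl1 and the neutrophil markers given by their counts were chosen after their values were seen. Some called list genes are counted but not reported here by name. The genes and lists were chosen with earlier results of these data known. Positions are from GENCODE vM21 (GRCm38) and promoter windows from RefSeq (GRCm38.p6), where 6 of the 7 genes matched.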

Additional observations from a re-analysis of the deposited data

Results flagged for a closer look

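S100a9 in recurrent 17-DMAG replicate 1 stood apart from the other 4 recurrent tumors: the gap to the nearest tumor was 0.854 of the whole range on the log2(CPM + 0.1) scale, above Dixon's critical value. Its level was 1.83 CPM. This was the only one of 14 such checks, the 7 genes in 6 primary and 5 recurrent tumors, to pass, and chance flags about 1 in 20. The tumor was also the highest of the 11 for Csf3r, Trem1, Ltf and the macrophage marker sum.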

How the results depend on the processing

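The gland comparison, with 2 genes called, gave 1 with DESeq2 (S100a9; Ltf received no adjusted p), 0 with a replicate block, 0 with primary untreated tumors only, and 0 to 2 when single libraries were left out. DESeq2 called 1 gene, S100a8, where edgeR called 0, in recurrent 17-DMAG plus stavudine against primary stavudine, in recurrent against primary tumors and in any difference among the 4 tumor groups. It gave an adjusted p to 3, 5 and 4 of the 6 genes there, and the share of all genes it called is not given here. The replicate numbers did not pair the samples: 3 of 23 same-number pairs had deviations correlated above 0.1, and 2 of 13 libraries were nearest to their own number. The replicate block turned the differences from glands to 0.064 for Il1b and 0.12 for Trem1, that of stavudine in primary tumors to -0.081 for Il1b, those between recurrent groups to -0.36 for Ltf and -0.72 for Csf3, and the Csf3 interaction to -0.42. Leaving out single libraries turned other differences that were not called. Against glands, the range was -1.29 to 0.85 for Csf3r, -0.30 to 0.37 for Il1b and -1.06 to 0.60 for Trem1. For stavudine in primary tumors it was -1.94 to 0.45 for S100a8, -2.61 to 0.21 for Ltf, -1.21 to 1.36 for Csf3 and -0.79 to 0.42 for Il1b. For recurrent 17-DMAG against primary untreated tumors it was -1.81 to 4.36 for Ltf, -0.061 to 1.01 for Csf3r and -0.14 to 1.17 for Il1b. Between recurrent groups it was -3.26 to 4.34 for Ltf, -0.50 to 0.72 for Csf3r, -2.63 to 1.59 for Csf3 and -1.60 to 1.01 for Trem1. For the interaction it was -1.35 to 6.26 for Ltf, -0.24 to 0.98 for Csf3r, -2.01 to 2.21 for Csf3, -0.033 to 1.54 for Il1b and -0.34 to 4.03 for Trem1. The causes were not tested. With 2 or 3 tumors a group and few counts of Csf3, Trem1, S100a8 and S100a9, moderate differences were not detectable.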

Other observations

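Prtn3, a neutrophil granule protease gene outside the 7, had 99 counts in recurrent 17-DMAG replicate 1, 86 and 57 in the 2 combination recurrences, and 2 to 20 in the other 8 tumors, while its neighbour on chromosome 10, Elane, had 0 to 4 counts in every tumor. Cxcl5, a neutrophil chemokine gene, had 30, 22 and 30 counts in those same 3 tumors and 0 to 4 in the others. The 3 genes nearest to S100a8 over the 11 tumors were Angpt1 (root mean square difference 0.60 against an SD of 2.09 for S100a8), Dmp1 (0.76) and Zbtb7c (0.82), none of them a gene of the neutrophil lists; those nearest to Il1b were Psrc1 (0.40), the Fc receptor gene Fcgr4 (0.41) and Ldha (0.42). Genes were chosen for this paragraph after their values were seen, apart from the nearest ones.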
